A study of Caenorhabditis elegans with 6 samples.

Results

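The X chromosome of Caenorhabditis elegans contributes few of the transcripts of the adult germline, and 98 protein-coding genes on it were nevertheless well expressed in wild-type distal gonads. They were taken by a rule on the wild-type libraries alone: a protein-coding gene on the X in the WBcel235 annotation with a mean of 20 or more CPM (reads of the gene per 1000000 gene-assigned reads) over the 3 wild-type libraries. The rule took 98 of 2730 protein-coding genes on the X and left 2632 under the limit. The same limit took 4743 of 17241 autosomal protein-coding genes. The data are counts of RNA-seq reads per gene from distal gonad arms of young adults 12 h after the L4 stage, in 3 samples carrying the sin-3 allele tm1276 and 3 wild-type samples. The labels give no other allele, agent or batch. Each sample pooled the gonads of several animals, cut at the bend, so it holds mitotic and early meiotic germ cells with the somatic cells around them. In such bulk samples fewer cells of a type and less RNA per cell cannot be told apart.

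In germ cells of the worm, the X chromosome is kept largely silent through mitosis and early meiosis by chromatin regulators that include the MES histone methyltransferases. Many genes needed in the germline lie on autosomes. SIN-3 is the scaffold of a histone deacetylase complex that removes acetyl groups from histone tails. A dissected gonad arm holds germ cells, somatic sheath cells and the distal tip cell, and can carry over other tissues.

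Gene-assigned totals were 24491014 to 30634455 reads in mutant libraries and 24505604 to 25002505 in wild-type libraries, and a count of 0 allows up to 0.0979 to 0.122 CPM (3 counts, counting error only). The level of sin-3 itself was 179.6 ± 4.27 CPM in the mutant and 365 ± 5.69 CPM in wild type (SD, n = 3 each), and a count per gene does not show which stretch of the transcript remains. All 14 germ cell markers, such as gld-1 and him-3, were detected, and their summed level was 4948 to 5124 CPM in mutant and 5268 to 5631 CPM in wild-type libraries. The defining somatic gonad markers lim-7 and ceh-18 were present at 1.76 to 6.76 CPM in mutant libraries, against 0.846 to 3.02 CPM in wild-type libraries. Wild-type replicate 1 stood apart from the other wild-type libraries. Among 11 members that encode yolk proteins, cuticle collagens or muscle proteins, it was the lowest wild-type library for 11, and for the other 87 members it was the highest for 71. Mutant replicate 1 stood apart from the other mutant libraries as well. It was the highest mutant library for 8 of the 11 members and for 64 of the other 87. Results that depend on wild-type replicate 1 are given with and without that library.

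The best expressed members in wild type, by reads, were C39D10.7 and the ABC transporter gene mrp-4. These levels chose the members and are given as a description. With library totals adjusted by trimmed mean of M values (TMM, which sets the libraries to a common scale and is used for all CPM values from here on unless stated), C39D10.7 (X, 7907966 to 7913930 in WBcel235) had 589.6, 461 and 436 CPM in the wild-type libraries and mrp-4 (X, 9884274 to 9889712) had 503, 462 and 456 CPM. Next came hsp-3, which encodes a BiP chaperone of the endoplasmic reticulum (ER), the protein disulfide isomerase gene pdi-2, the predicted glutamate synthase gene W07E11.1, and tbh-1, whose product makes octopamine and is known from gonadal sheath cells as well as neurons. The 10 genes with the most reads held 37.0% of the members' wild-type counts. The median member had 34.6 CPM of its library total, with a range of 20.3 to 467 CPM, and the median of the 4743 autosomal genes over the same limit was 85.0 CPM.

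Per kilobase of annotated exon the order was different, with F23A7.8 first. The wild-type level of F23A7.8 was 257 CPM per kilobase, that of C39D10.7 was 139, that of T04G9.7 was 138 and that of the histone H4 gene his-38 was 121 CPM per kilobase. Next were pdi-2 at 99.9, mrp-4 at 93.5 and hsp-3 at 93.4 CPM per kilobase, 3 genes whose wild-type values lie within their spread of each other. The lowest value was 3.54 CPM per kilobase, for F46H5.4. The members' median on this scale was 16.5 CPM per kilobase and that of the autosomal genes over the limit was 57.0 CPM per kilobase.

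The members just inside the limit were zipt-7.2, a zinc transporter gene, ZC506.1 and sdc-1, a zinc finger gene of sex determination and dosage compensation, with wild-type means of 20.4, 20.3 and 20.3 CPM of the library total. Just outside it were the cyclin-dependent kinase gene cdk-11.2, the dosage compensation gene sdc-2 and the myosin light chain gene mlc-1, with 19.9, 19.9 and 19.7 CPM. The limit therefore parts genes with nearly the same level.

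Most of the 98 genes rose in the sin-3 mutant. All 98 passed the filter on low counts, and 72 were called higher, 5 lower and 21 not called (edgeR quasi-likelihood test, Benjamini-Hochberg adjusted p under 0.05 over 9787 genes). Among all genes tested, 31.3% were called higher and 30.7% lower. Members had a median log2 fold change (mutant over wild type) of 0.36, with quartiles of 0.19 and 0.58, and all genes tested had 0.028. The estimate was above 0 for 82 of the 98 genes and above 1 for 5, which are ent-2, let-2, T04G9.7, lin-15B and his-38. Without wild-type replicate 1, 77 members were called higher and 11 lower, and scaling by library totals, under which the median of all genes was 0.19 in place of 0.028, gave 77 and 4. Because the rule used the wild-type libraries, members were also picked from wild-type replicate 1 alone and compared without it: 108 genes qualified, with 87 called higher, 10 called lower and a median of 0.44. That library was the highest wild-type library for 71 of the 98 members, and leaving it out alone gave them a median of 0.40. The split compares with the lower wild-type libraries, so it cannot show that the rule has no effect.

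**Figure D1:**
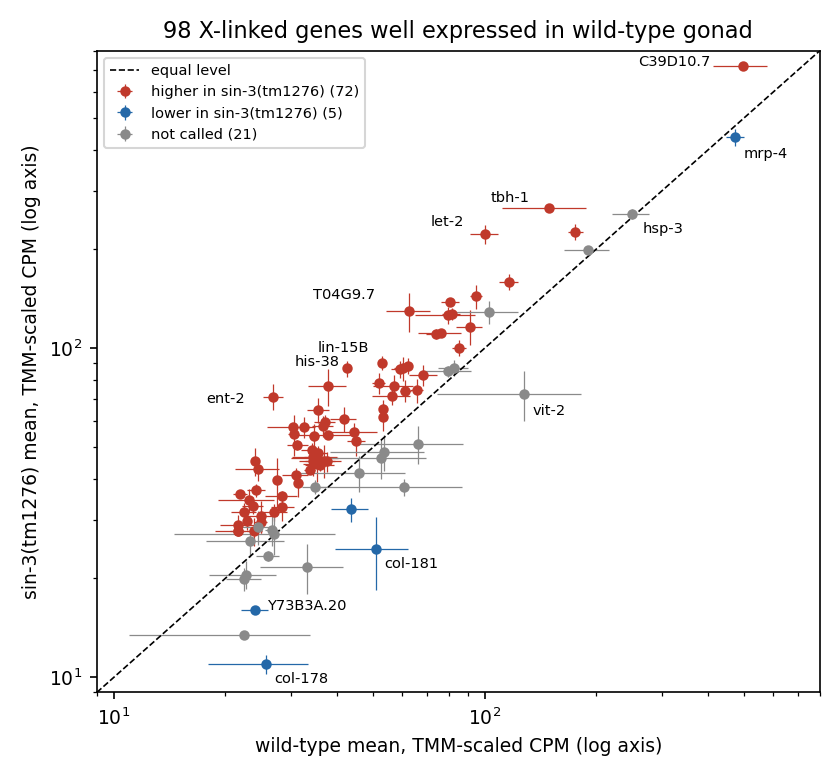
Mean level of each of the 98 genes in sin-3(tm1276) (vertical axis) and in wild type (horizontal axis), in TMM-scaled CPM on log axes, with bars for the SD over 3 libraries and colours for the edgeR call. The 72 genes called higher lie above the dashed line of equal level, and 5 of the 98 genes are called lower.

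Autosomal genes over the same limit showed the opposite balance in the fit with TMM scaling. Of the 4743 autosomal genes, 1039 were called higher and 2454 lower, at a median log2 fold change of -0.12, and the medians of the 5 autosomes lay between -0.24 on chromosome V and -0.074 on chromosome I. Of the 2632 X-linked genes under the limit 1079 passed the filter, which a gene can pass through its level in either genotype. The 1079 genes had 667 called higher, 22 called lower and a median of 0.55. A gene low in wild type can pass through high mutant values alone, which raises this median. It cannot be set against the median of the members. Within bands of wild-type level the members and autosomal genes differed in the same direction, at medians of 0.34 and -0.10 between 20 and 30 CPM, 0.40 and -0.091 between 30 and 60 CPM, and 0.35 and -0.13 from 60 CPM up. The autosomal counts and medians are from the TMM fit only, and their sign can depend on scaling. Scaling by library totals moved the median of all genes tested from 0.028 to 0.19, with 4443 called higher and 1866 lower.

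**Figure D2:**
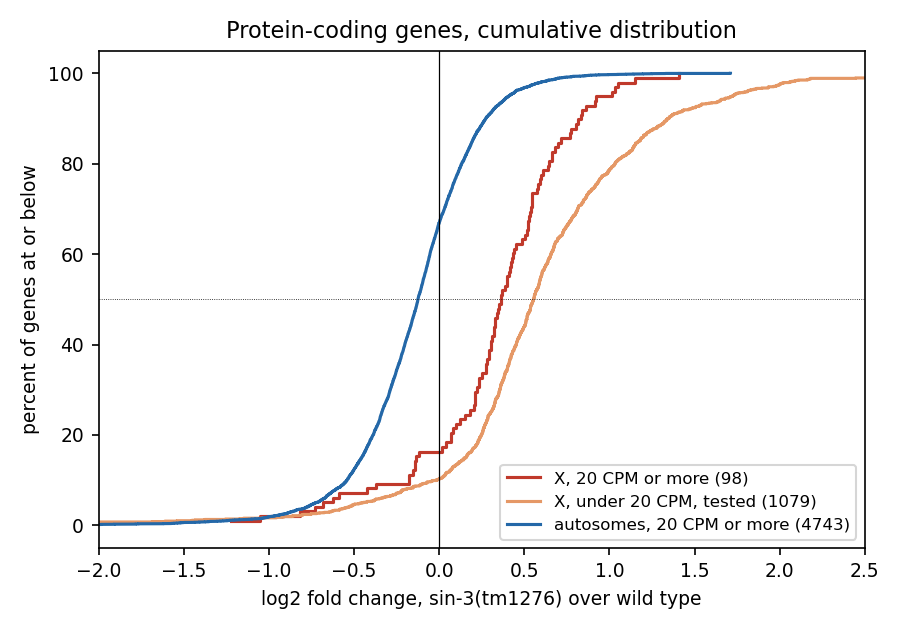
Cumulative percent of genes (vertical axis) at or below each log2 fold change of sin-3(tm1276) over wild type (horizontal axis) for the 98 members, for the X-linked genes under 20 CPM that passed the filter, and for autosomal genes of 20 CPM or more. The curves cross the 50% line at 0.36, 0.55 and -0.12.

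The share of all gene-assigned reads that fell on the 98 genes was 0.842%, 0.768% and 0.791% in the mutant libraries, against 0.579%, 0.548% and 0.540% in the wild-type libraries. The 2 genotypes did not overlap. The difference was 0.245 percentage points (two-sided exact permutation p = 0.1, which is also the lowest value this design can reach). Set against the reads on the autosomal genes over the limit, a ratio that no library scaling can change, the members were higher in the mutant by 0.54 on the log2 scale, with means of -6.66 ± 0.064 in the mutant and -7.205 ± 0.052 in wild type (SD, n = 3 each, exact permutation p = 0.1). The 98 genes made up 49.9% ± 0.17 of all protein-coding reads on the X in the mutant and 52.7% ± 0.45 in wild type (SD, n = 3 each, exact permutation p = 0.1). The rule took these genes for their level in the same wild-type libraries, which favours a larger share in wild type. The test therefore cannot show that their part of the X reads fell.

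The chromatin and transcription genes all rose. This class held 7 members, all 7 called higher, at a median log2 fold change of 0.43. Of all 98 members 73.5% were called higher and 5.1% lower, at a median of 0.36. The counts of this and the following classes stand beside that share, and differences between classes were not tested. The gene lin-15B (X, 15726123 to 15732025), a synMuv B repressor that acts against germline gene expression in somatic cells, had 89.0, 90.1 and 81.1 CPM in the 3 mutant libraries, against 42.8, 41.6 and 42.9 CPM in the 3 wild-type libraries. Its libraries of one genotype lay far from those of the other, and the log2 fold change was 1.03 ± 0.049 (SE, adjusted p = 7.4e-10). The histone gene his-38 (X, 7309564 to 7309875), one of several histone H4 genes with near-identical coding sequences, so that its counts are uncertain, had 74.5, 67.9 and 86.9 CPM in the 3 mutant libraries, against 42.5, 33.9 and 37.0 CPM in the 3 wild-type libraries. It rose by a log2 fold change of 1.01 ± 0.12 (SE). The Mediator subunit gene dpy-22, the homologue of MED12, and spat-3, which encodes a RING finger protein of Polycomb repressive complex 1 type, rose by 0.55 and 0.43. The dosage compensation gene sdc-1, the bromodomain gene bet-2 and the BMP pathway cofactor gene sma-9 rose by 0.42, 0.33 and 0.31, and the edgeR call of sma-9 ended without wild-type replicate 2 (adjusted p = 0.058) or 3 (0.052).

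The 3 P granule genes on the list rose too. Intrinsically disordered MEG proteins shape the germ granules of the early embryo, and their mRNAs are made in the adult germline. The gene meg-1 (X, 13927036 to 13929634) had 157, 134 and 139.7 CPM in the 3 mutant libraries, against 98.9, 92.5 and 92.8 CPM in the 3 wild-type libraries. Its mutant libraries were all above its wild-type libraries, at a log2 fold change of 0.60 ± 0.056 (SE, adjusted p = 3.5e-06). Its relatives meg-3 and meg-4, which act together in embryonic P granule assembly, rose by 0.55 ± 0.051 and 0.34 ± 0.055 (SE). The gene meg-1 lies far from meg-3 and meg-4 on the chromosome, with starts at 1682954 (meg-4), 1986469 (meg-3) and 13927036 (meg-1).

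Among 6 membrane transporter genes 5 rose (83.3%, against 73.5% of all 98 members) and 1 was called lower. The class held the largest rise of all members. The equilibrative nucleoside transporter gene ent-2 (X, 15601067 to 15603686) had 65.9, 78.2 and 69.6 CPM in the 3 mutant libraries, against 28.7, 26.6 and 25.3 CPM in the 3 wild-type libraries. All mutant values were far above every wild-type value, and the log2 fold change was 1.41 ± 0.069 (SE, adjusted p = 2.4e-09). Its relative ent-5 rose by 0.68, the ABC transporter gene mrp-5, which is known for heme export, by 0.49, the choline transporter-like gene chtl-1 by 0.44 and zipt-7.2 by 0.36. The ABC transporter gene mrp-4 had 464, 429.8 and 415 CPM in the 3 mutant libraries, against 503, 462 and 456 CPM in the 3 wild-type libraries. Its genotypes overlapped, the log2 fold change was -0.12 ± 0.048 (SE, adjusted p = 0.045), and the call ended in the edgeR fit without wild-type replicate 1 (adjusted p = 0.13), without wild-type replicate 2 (0.052), without mutant replicate 2 (0.073), without mutant replicate 3 (0.11), with TMM on autosomal genes (0.23) and with a stricter filter (0.34), while scaling by totals turned its estimate to 0.047 (adjusted p = 0.39).

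Endocytosis, lysosome and autophagy genes rose in 8 of 9 cases, at a median of 0.40. The dynamin gene dyn-1 (X, 15568890 to 15573021), needed to pinch off endocytic vesicles and to engulf dying cells, had 54.8 ± 7.65 CPM in the mutant and 30.6 ± 1.04 CPM in wild type (SD, n = 3 each), a log2 fold change of 0.84 ± 0.090 (SE). The lipid kinase gene ppk-3, the homologue of PIKfyve, which acts in lysosome maturation, had 57.5 ± 4.13 CPM in the mutant and 32.6 ± 1.29 CPM in wild type (SD, n = 3 each), a log2 fold change of 0.82 ± 0.061 (SE). The rabconnectin gene rbc-1, whose product acts on the vacuolar proton pump, rose by 0.53 and the pump subunit gene vha-12 by 0.21. The lysosomal membrane gene lmp-1 rose by 0.40 and the autophagy gene epg-7 by 0.32. The epsin gene epn-1 was the class member not called, at 0.07 ± 0.081 (SE, adjusted p = 0.48), and was called higher when libraries were scaled by totals (0.23, adjusted p = 0.017).

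Genes of central and lipid metabolism rose in 11 of 14 cases, with a median of 0.38, and none was called lower. This is 78.6% called higher, near the 73.5% and the median of 0.36 of all 98 members. The largest rise was that of acly-1 (X, 1479542 to 1484087), which encodes ATP citrate lyase, the enzyme that makes cytosolic acetyl-CoA. It had 133, 124 and 123 CPM in the 3 mutant libraries, against 86.3, 80.7 and 77.2 CPM in the 3 wild-type libraries, a log2 fold change of 0.64 ± 0.046 (SE) with no overlap between genotypes. The propionyl-CoA carboxylase subunit genes pcca-1 and pccb-1 rose by 0.51 and 0.28, W07E11.1 by 0.36, the aspartate aminotransferase gene got-2.2 by 0.59 and the phosphofructokinase gene pfk-1.1 by 0.41. The arginine kinase gene F46H5.3 had 141, 126 and 119.8 CPM in the 3 mutant libraries, against 79.0, 109.5 and 118.8 CPM in the 3 wild-type libraries. All mutant values were above the wild-type values, the lowest of them barely, and wild-type replicate 1 was far below the other wild-type libraries and the gene was not called (log2 fold change 0.33 ± 0.18, SE, adjusted p = 0.18). The neighbouring acyl-CoA dehydrogenase genes acdh-10 and acdh-7, of fatty acid oxidation, were not called, at -0.15 and -0.18. They were called lower without wild-type replicate 2 (acdh-10, -0.22, adjusted p = 0.031) and without wild-type replicate 3 (acdh-7, -0.27, adjusted p = 0.021) in edgeR.

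The 9 genes of ER folding and secretion had 4 members called higher, 0 called lower and a median log2 fold change of 0.12. The glycoprotein folding sensor gene uggt-1 (X, 7495694 to 7500982) rose by 0.54 ± 0.083 (SE), with 111 ± 1.37 CPM in the mutant and 76.2 ± 10.05 CPM in wild type (SD, n = 3 each). The ER exit site gene sec-16A.2 and the calumenin gene calu-1 rose by 0.52 and 0.25. The chaperone gene hsp-3 (X, 6089028 to 6092124) had 258, 264 and 246 CPM in the 3 mutant libraries, against 275, 253 and 219 CPM in the 3 wild-type libraries, with overlapping genotypes and a log2 fold change of 0.04 ± 0.084 (SE, adjusted p = 0.72). The disulfide isomerase genes pdi-2 and pdi-6 and the ER stress kinase gene pek-1 were not called, at 0.07, 0.10 and 0.12. Without wild-type replicate 1, which was the highest wild-type library for hsp-3, pdi-2 and pdi-6, 7 of the 9 genes were called higher, at a median of 0.21, and by DESeq2 3 were. Scaling by totals gave 6 of 9 higher at a median of 0.29, with hsp-3 (0.20, adjusted p = 0.04995) and pek-1 (0.29, adjusted p = 0.0013) among them in edgeR. The gene pek-1 was also called higher with TMM on autosomal genes (adjusted p = 0.036), with a stricter filter (0.016) and without wild-type replicate 1 (0.039). Without wild-type replicate 3 the translocon-associated gene trap-2 was called lower (log2 fold change -0.31, adjusted p = 0.017 in edgeR).

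All 5 signalling genes were called higher, at a median of 0.67, or 3 of 5 without mutant replicate 1 and without wild-type replicate 3. The Robo receptor gene sax-3, the protein kinase N gene pkn-1 and the stress MAP kinase kinase gene mek-1 rose by 0.67, 0.70 and 0.64. The gene tbh-1 (X, 15500256 to 15504895) had 261, 268 and 271 CPM in the 3 mutant libraries, against 193, 126 and 129 CPM in the 3 wild-type libraries. The mutant libraries were close together and wild-type replicate 1 stood well above the other wild-type libraries, at a log2 fold change of 0.84 ± 0.20 (SE, adjusted p = 0.0205). The edgeR call of tbh-1 held without wild-type replicate 1 and ended, at adjusted p of 0.056 to 0.066, when any one of the other 5 libraries was left out. The tbh-1 call also ended in an edgeR fit with a replicate block (adjusted p = 0.066). The 14-3-3 gene ftt-2 rose by 0.21, a call that ended without mutant replicate 1 (adjusted p = 0.072) and without wild-type replicate 3 (0.087).

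Structural genes divided. The alpha spectrin gene spc-1 (X, 3117439 to 3127079), part of the cortical membrane skeleton, had 159 ± 8.68 CPM in the mutant and 116 ± 6.95 CPM in wild type (SD, n = 3 each), a log2 fold change of 0.45 ± 0.049 (SE), and the non-muscle myosin gene nmy-1 rose by 0.86 ± 0.069 (SE). The collagen IV gene let-2 (X, 16380597 to 16389340), which encodes a chain of the basement membrane that surrounds the gonad, had 231, 205 and 229 CPM in the 3 mutant libraries, against 105, 105 and 89.8 CPM in the 3 wild-type libraries. It was higher in every mutant library than in any wild-type library, with a log2 fold change of 1.15 ± 0.072 (SE, adjusted p = 2.8e-06). Its partner chain emb-9, on chromosome III, had 174 ± 7.79 CPM in the mutant and 73.2 ± 2.497 CPM in wild type (SD, n = 3 each), a log2 fold change of 1.25 ± 0.042 (SE). Both genes belong to the list of 25 somatic gonad markers, of which 22 were tested, 16 called higher and 0 lower. The summed level of that list was 2224 to 2368 CPM in mutant and 1796 to 2096 CPM in wild-type libraries, most of it from fln-1 (1554 to 1643 CPM in mutant and 1463 to 1735 CPM in wild-type libraries), which was not called. Among the 90 members in none of the somatic marker lists, 71 were called higher and 5 lower, at a median of 0.39. The 90 still include tbh-1, the muscle gene mlc-2 and the cuticle collagen genes col-178, col-181 and col-184, which the lists leave out. The part of somatic cells in the members' rise was not tested.

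Members that encode yolk, cuticle collagens or muscle proteins did not rise, and they varied most between wild-type libraries. They are 11 of the 98 genes, grouped after their values were seen, of which 0 were called higher and 2 lower, at a median log2 fold change of -0.62. The other 87 genes gave 72 higher, 3 lower and a median of 0.41. The yolk protein gene vit-2 (X, 5101042 to 5106169), normally transcribed in the intestine, had 86.5, 68.6 and 62.7 CPM in the 3 mutant libraries, against 74.6, 127 and 182 CPM in the 3 wild-type libraries. Wild-type replicate 1 lay within the range of the mutant libraries and the other wild-type libraries lay above it, and vit-2 was not called (log2 fold change -0.82 ± 0.39, SE, adjusted p = 0.14). The genes vit-5, vit-3 and vit-1, close relatives that can share reads, were not called either, at -0.68, -0.73 and 0.02, although vit-1 was called higher without wild-type replicate 3 (0.45, adjusted p = 0.022 in edgeR).

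The cuticle collagen genes col-181 and col-178 were called lower, at -1.05 ± 0.27 and -1.22 ± 0.25 (SE, adjusted p = 0.025 and 0.0075). The gene col-178 had 11.4, 11.4 and 10.2 CPM in the 3 mutant libraries, against 16.999, 28.4 and 31.7 CPM in the 3 wild-type libraries, which do not overlap. For col-181 the edgeR call ended without mutant replicate 2 (adjusted p = 0.091), without mutant replicate 3 (0.080), without wild-type replicate 3 (0.072) and with no filter on low counts (0.059). The col-181 call also ended in an edgeR fit with a replicate block (adjusted p = 0.12). The adult cuticle collagen gene col-19 and the muscle genes act-4, mlc-2 and mup-2, for an actin, a myosin light chain and troponin T, were not called, at -0.37, -0.14, -0.13 and 0.15. The summed level of the 11 genes was 427, 361 and 339 CPM in the mutant libraries, against 345, 568 and 695 CPM in the wild-type libraries, so that wild-type replicate 1 fell within the mutant range. Without it, 9 of the 11 genes were called lower and 0 higher, without mutant replicate 2 or 3 only 1 was lower, and without wild-type replicate 3, 1 was lower and 1 higher. The summed level of 12 intestine markers was 276 to 343 CPM in mutant and 263 to 682 CPM in wild-type libraries, and that of 14 muscle markers 334 to 470.2 CPM in mutant and 309.8 to 537 CPM in wild-type libraries. Wild-type replicate 1 was the lowest library in both lists, and the part of these tissues in the values was not tested.

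**Figure D3:**
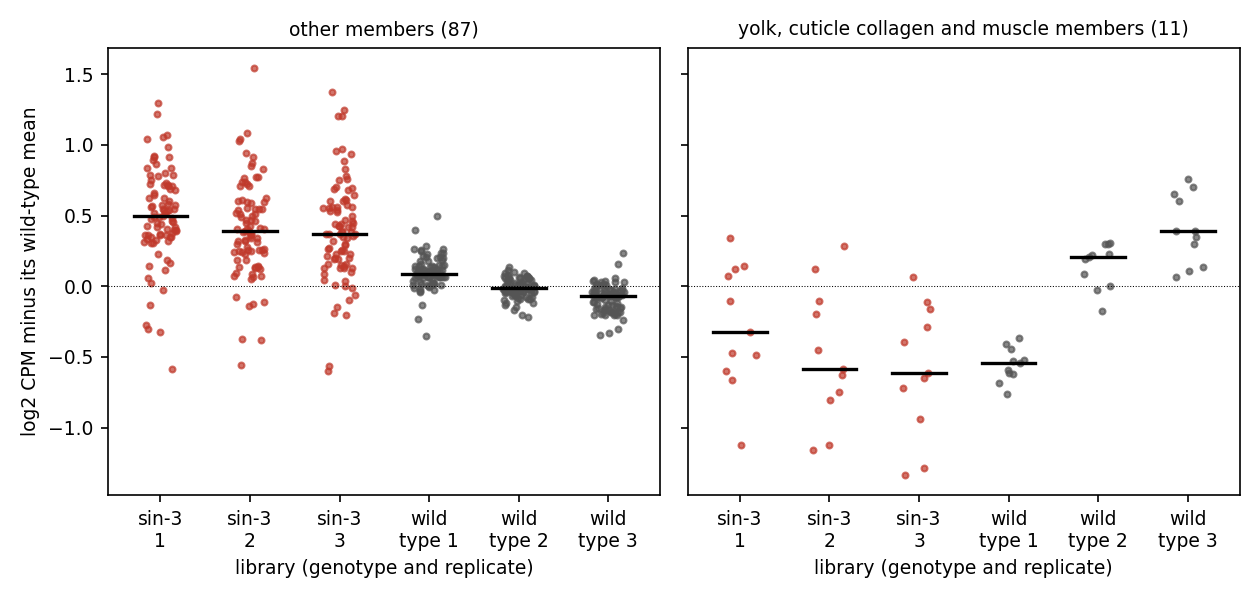
Level of each member in each library, as log2 CPM minus its wild-type mean (vertical axis), for the other 87 members (left) and the 11 yolk, cuticle collagen and muscle members (right), with a black line at the median. The medians of the mutant libraries are above those of the wild-type libraries on the left, and on the right the median of wild-type replicate 1 sits among those of the mutant libraries.

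For 5 members, an autosomal relative with more reads moved the other way. Over the whole sets, 73.5% of members were called higher and 51.7% of autosomal genes over the limit were called lower. Opposite calls are therefore common between the 2 sets and need nothing particular to relatives. The elongation factor gene eef-1A.2 had 45.4 ± 4.53 CPM in the mutant and 24.1 ± 0.615 CPM in wild type, while eef-1A.1 on chromosome III, which encodes nearly the same protein, had 10263 ± 514 CPM in the mutant and 15496 ± 553 CPM in wild type (SD, n = 3 each). The log2 fold changes were 0.91 ± 0.073 and -0.59 ± 0.040 (SE), and reads shared by the 2 copies make single counts uncertain. The ribosomal protein gene rpl-11.2 and its copy rpl-11.1 on chromosome V changed by 0.81 ± 0.096 and -0.34 ± 0.029 (SE). The ATP synthase subunit b gene asb-2 had 45.5 ± 4.71 CPM in the mutant and 34.4 ± 2.79 CPM in wild type, and asb-1 on chromosome III, the form known from the germline, had 216 ± 8.42 CPM in the mutant and 279 ± 8.58 CPM in wild type (SD, n = 3 each). They changed by 0.40 ± 0.080 and -0.36 ± 0.037 (SE). The same held for sec-16A.2 and sec-16A.1, at 0.52 ± 0.11 and -0.30 ± 0.032 (SE), and for ftt-2 and the other 14-3-3 gene par-5, at 0.21 ± 0.070 and -0.33 ± 0.033 (SE). All 10 of these calls kept their sign when libraries were scaled by totals. The BiP genes hsp-3 and hsp-4 were both not called, but scaling by totals called both higher in edgeR (0.20, adjusted p = 0.04995 for hsp-3 and 0.15, adjusted p = 0.010 for hsp-4), and without wild-type replicate 3 hsp-4 was called lower (-0.085, adjusted p = 0.033). The relative of pfk-1.1, pfk-1.2, had no read in any of the 6 libraries. These pairs were picked from textbook knowledge once the members were known, and let-2 and emb-9, picked likewise, rose together.

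Of 29 members with no class assigned, 24 rose (82.8%, against 73.5% of all 98 members), 2 fell and 3 were not called. The gene T04G9.7 (X, 770837 to 771882) had 113, 127 and 148 CPM in the 3 mutant libraries, against 72.2, 56.6 and 58.9 CPM in the 3 wild-type libraries. It was higher in every mutant library, by a log2 fold change of 1.05 ± 0.15 (SE, adjusted p = 0.0029). The gene C39D10.7 had 732, 701 and 724 CPM in the 3 mutant libraries, against 589.6, 461 and 436 CPM in the 3 wild-type libraries, a rise of 0.54 ± 0.13 (SE, adjusted p = 0.0195), and its edgeR call ended, at adjusted p of 0.052 to 0.063, without any one of the 3 mutant libraries or wild-type replicate 2, and with no filter on low counts. The gene R04D3.2 (X, 13285121 to 13286633) rose by 0.92 ± 0.086 (SE) and R04D3.3 by 0.34 ± 0.082 (SE). The gene F39C12.1 rose by 0.35, a call that ended without wild-type replicate 2 (adjusted p = 0.087) or 3 (0.092). The gene R09F10.8 was not called, at 0.08 ± 0.065 (SE, adjusted p = 0.29), and was called higher without wild-type replicate 1 (0.15, adjusted p = 0.019) and under scaling by totals (0.25, adjusted p = 0.0030).

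**Figure D4:**
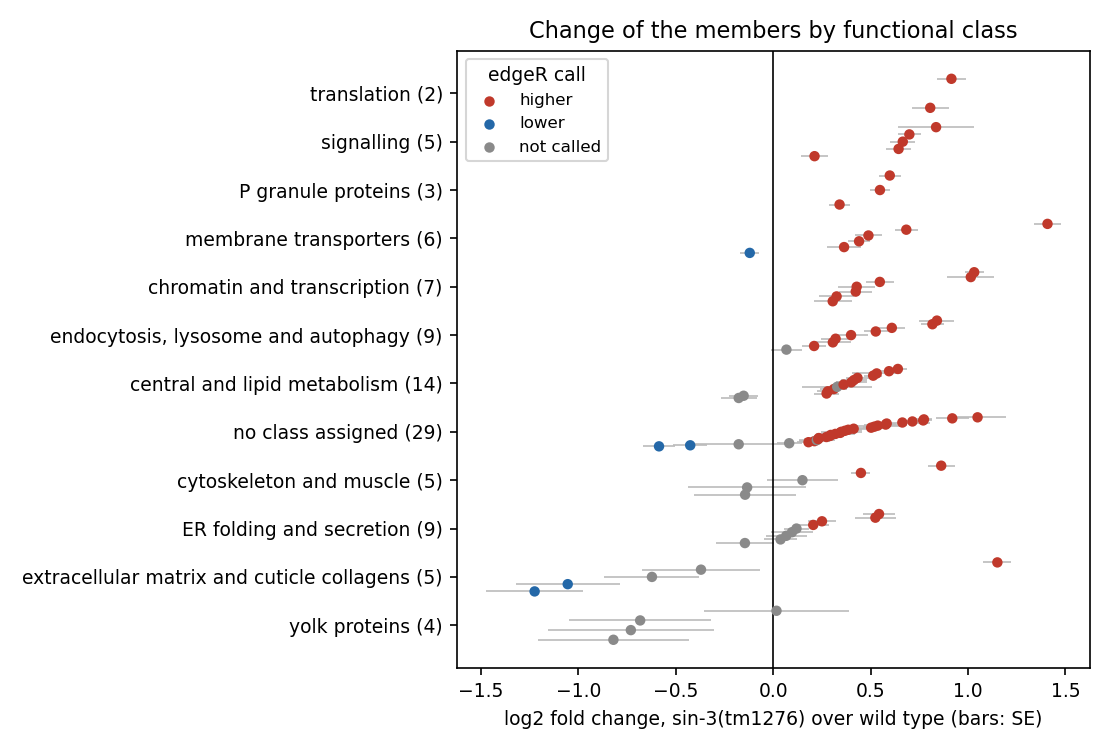
Log2 fold change of sin-3(tm1276) over wild type (horizontal axis, bars for the SE) of each member, by functional class (vertical axis, number of members in brackets), with colours for the edgeR call. Yolk and cuticle collagen genes lie left of 0, apart from vit-1 at 0.02, and the chromatin, P granule, signalling and translation classes lie wholly to the right.

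The members were spread over the whole chromosome. Cut into 3 equal stretches of 5.91 Mb, the left, middle and right of the X held 33, 35 and 30 members, which is 3.79%, 3.58% and 3.40% of their protein-coding genes. In these stretches 24, 25 and 23 members rose and 2, 2 and 1 were called lower, at medians of 0.35, 0.33 and 0.42. The shares called higher were 72.7%, 71.4% and 76.7%, near the 73.5% of all 98 members. The densest windows of 1 Mb were those starting at 7 Mb, with 14 members, and at 4 Mb, with 12. In the first window 1 of 5 members was called higher and in the last 0 of 3. The 49 members on the plus strand equalled the 49 on the minus strand, and the median distance between successive starts was 125 kb.

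Of the members, 10 formed 5 pairs with no other protein-coding gene between their starts. The partners of each pair got the same call, in a set where 72 of 98 members were called higher. The trypsin-like protease gene try-14 and uggt-1 lie 102 bases apart on one strand and rose by 0.66 and 0.54, although try-14 lost its call without wild-type replicate 3 (adjusted p = 0.056). The genes spat-3 and pqn-65 rose by 0.43 and 0.27, and epg-7 and C07D8.6 by 0.32 and 0.58. The acdh pair lies 114 bases apart on one strand and was not called.

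The pair called lower was the one nearest the left end of the chromosome. The gene Y73B3A.1 (X, 42632 to 46933, minus strand) had 34.6, 33.2 and 29.3 CPM in the 3 mutant libraries, against 45.0, 47.5 and 37.9 CPM in the 3 wild-type libraries. The gene Y73B3A.20 (X, 47690 to 58063, plus strand), which starts 756 bases past its end, had 15.97, 16.2 and 15.8 CPM in the 3 mutant libraries, against 25.2, 25.1 and 21.7 CPM in the 3 wild-type libraries. In neither gene did the genotypes overlap, and the log2 fold changes were -0.43 ± 0.087 and -0.59 ± 0.081 (SE, adjusted p = 0.0013 and 2.4e-05). The next tested protein-coding gene, Y73B3A.4 at 95614 to 104777, was not called, at 0.036 ± 0.11 (SE, adjusted p = 0.78).

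The median exon length of the members was 2682 bases, against 1260 bases for the other 2632 X-linked protein-coding genes, 1707 bases for the 1079 of these that were tested and 1606 bases for the autosomal genes over the limit. A limit on reads per gene favours long genes, so this length is in part set by the rule. Divided by exon length into short, middle and long members, the median log2 fold changes were 0.26, 0.41 and 0.42, with 17 of 32, 28 of 33 and 27 of 33 called higher. The short members, of 204 to 1665 bases, include col-19, col-178, col-181, col-184, act-4, mlc-2 and mup-2. None of these cuticle collagen and muscle genes was called higher, and the part of length in the lower median was not tested. The gene body of 27 members overlaps another annotated gene, and 25 of them have a gene on the other strand. Of the 71 members that overlap none, 55 rose and 4 were called lower (median 0.39).

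Listed regulators linked to X silencing in germ cells showed no common direction. The list was not split by the direction in which each gene acts on the X. Of 18 listed regulators, all tested, 5 were called higher and 7 lower, at a median log2 fold change of 0.026, and this balance depends on the scaling, since scaling by library totals gave 10 higher and 3 lower. The histone H3K36 methyltransferase gene mes-4 fell to 133 ± 3.19 CPM in the mutant, against 179 ± 2.79 CPM in wild type (SD, n = 3 each), a log2 fold change of -0.43 ± 0.034 (SE). The H3K27 methyltransferase gene mes-2 fell by 0.26 on the log2 scale. Of its partners in the same complex, mes-6 fell by 0.19 and mes-3 rose by 0.18 on that scale. The 1 member on that list is lin-15B, described above.

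In the authors' deposited table of their own comparison, 65 of the 98 genes had an adjusted p under 0.05 and a positive change, 6 a negative one, and the members' median was 0.31 (log2). All 65 genes higher in the authors' deposited table were also called higher by edgeR, and 5 of its 6 lower genes were also called lower.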

How the data were processed

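The authors' deposited counts are whole reads per gene, not normalized, from single-end reads of a stranded, ribosomal RNA-depleted library per the labels' protocols. DESeq2 1.36.0, HTSeq 0.7.2, STAR 2.7.3a and fastp 0.20.1 are listed without roles (per the submitters' processing notes); build and strand setting: not given in the sources used here. The authors' deposited table gave log2 fold changes and adjusted p-values, and 3 of its columns were not used. Lines that name no gene, 8.73% to 10.9% of counted reads, were left out. Of 46934 identifiers, 46923 matched Ensembl release 115 (WBcel235), the source of names, types and coordinates.

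The main test was that of edgeR 4.0.16 in R 4.3.3 (filterByExpr, TMM, robust quasi-likelihood F test, Benjamini-Hochberg over 9787 genes, threshold 0.05), with DESeq2 1.42.0 as an alternative. The edgeR step was tested on simulated data with known changes. Log2 fold changes are mutant over wild type; errors are SE for these and SD for levels. Single values per library were compared by two-sided exact permutation. The labels leave unsaid if replicates were grown separately; p-values reflect only how these samples vary, which may be technical. Chi-square per degree of freedom was 12.5 to 18.8 within and 72.4 to 129.9 between genotypes, so no library repeats another.

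The members, lists and tests were chosen with earlier results of these data known. The naming rule took the 12 best expressed members, the 12 largest rises among genes called higher without overlap, the genes called lower, 5 genes nearest no change, genes beside the limit, the 2 best expressed per class and runs of neighbouring members; other members are examples chosen after their values were seen. Classes were assigned by hand from names without fold changes. Promoter motifs and sequences were not used here. Alternatives were other scalings and filters, DESeq2, a replicate block, single libraries left out, other limits and smaller member sets.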

Additional observations from a re-analysis of the deposited data

How the results depend on the processing

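The members called higher numbered 64 to 77 and those called lower 3 to 11 when single libraries were left out. The high end of both was without wild-type replicate 1 (77 and 11), where 4 of the 5 lower genes of the main comparison were kept and 72 of 72 higher genes, and the low end for lower genes was without mutant replicate 2 or 3. Across these fits the median log2 fold change was 0.33 to 0.40, the difference in the share of counts 0.224 to 0.261 percentage points and the log2 ratio to autosomal genes 0.51 to 0.57. Scaling by library totals moved the members' median to 0.53, beside 0.19 for all genes. With a limit of 10 CPM, 202 of 266 genes were higher and 8 lower, and with 50 CPM, 24 of 34 and 1. With members from wild-type replicate 1 alone, 10 of 108 were lower and the median was 0.44. Without the 15 genes whose wild-type coefficient of variation is over 20%, an alternative added after the data were seen, 3 of 83 were lower. Under the other alternatives run the counts stayed within 1.5 times and the median within 1 SD between libraries. The share and ratio differences stayed positive in each alternative run, at 0.153 to 0.368 percentage points (limits of 50 and 10 CPM) and 0.51 to 0.61. DESeq2 gave 70 higher and 6 lower, no filter 72 and 4, a mean of at least 5 CPM 74 and 4, and TMM on autosomal genes 74 and 4. Among the named genes that were called, mrp-4 changed sign under scaling by totals, to 0.047 (adjusted p = 0.39 in edgeR); the cause was not tested. Estimates near 0 of genes not called also turned positive under that scaling, to 0.021 for act-4, 0.014 for acdh-10, 0.16 for mlc-1 and 0.15 for hsp-4. Same-numbered libraries showed no positive correlation of their deviations from the genotype means, at -0.26, -0.078 and -0.13. Deviations from a mean of 3 libraries are tied to each other, so these values cannot show that the libraries were unpaired. A fit with the replicate block gave 72 higher and 4 lower members at a median of 0.37, with col-181 (-1.05, adjusted p = 0.12 in edgeR) and tbh-1 (0.86, adjusted p = 0.066) not called, and the share and ratio differences were 0.245 and 0.54 with an exact sign-flip p of 0.25, the smallest that 3 pairs allow. With 3 libraries a genotype, the calls of yolk, cuticle and muscle members depend on which library is left out. Which wild-type library is the unusual one for these genes was not tested.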
